A study of Mus musculus with 13 samples.

Results

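The insulin-like growth factor (IGF) binding proteins measured here are the products of Igfbp2, Igfbp3, Igfbp4, Igfbp5, Igfbp6 and Igfbp7. They were chosen by name from the genes on the array, 6 of 19937 genes, and each is represented by 1 probe set. Their transcripts were followed over 13 microarrays, 1 per mouse sample, in 6 groups that differ in genotype, day or material. The genotypes name oncogenic Braf, which drives mitogenic signalling, Cdkn2a, a tumour suppressor locus that is lost, and Lkb1 (Stk11), a kinase gene that is also lost. Melanocytes purified by flow cytometry came from Cdkn2a only animals at day 19 with wild-type Braf (2 arrays), from Cdkn2a/Braf animals at day 19, before growth arrest (2 arrays), and from Cdkn2a/Braf animals at day 50, after growth arrest (2 arrays). The tissues were taken without culture. They were melanomas of genotype Cdkn2a/Braf (2 arrays), melanomas of genotype Cdkn2a/Braf/Lkb1 (2 arrays) and melanocytic proliferations of genotype Lkb1/Braf (3 arrays, labelled as pooled). The Cdkn2a genotype is shared by every group except the proliferations, and the Braf allele by every group except the Cdkn2a only cells. The Cre driver of the alleles, the strain and the age of the mice with tissue samples are not given in the sources used here. A day is given for sorted cells. They call the samples biological replicates.

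IGF binding proteins are secreted proteins that hold IGF1 and IGF2 outside the cell. Bound ligand is kept from the IGF1 receptor and has a longer life in blood and matrix, and proteases that cut the binding protein release it. The family is therefore read as a local brake or reservoir for IGF signals, with further actions of single members on matrix and cell surface. IGFBP7 binds IGFs weakly and is also a vessel and basement membrane protein. It was described in cultured human melanocytes as a secreted mediator of BRAF-driven growth arrest, a role that later work disputed.

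Promoter sequences are shown for 4 members, chosen for where their levels were highest. Igfbp2 and Igfbp5 are next to each other among the protein-coding genes of chromosome 1 and were both highest in the proliferations. Igfbp4 and Igfbp7 stand for the members that were high in melanoma tissue. Each line gives the 250 bases before a transcription start in RefSeq (build GRCm38.p6), written 5′ to 3′ on the gene's strand. The capitals mark the motifs searched for on both strands, which were the TATA box TATAAA and its variant TATATA, the GC box GGGCGG, the E-box CACGTG, the M-box core TCATGTG, the AP-1 site TGANTCA and the FOXO site GTAAACA. The first pair can overlap. Igfbp2 has 2 starts in the table, and the outermost was used.
Igfbp2, chr1:72824230-72824479, plus strand: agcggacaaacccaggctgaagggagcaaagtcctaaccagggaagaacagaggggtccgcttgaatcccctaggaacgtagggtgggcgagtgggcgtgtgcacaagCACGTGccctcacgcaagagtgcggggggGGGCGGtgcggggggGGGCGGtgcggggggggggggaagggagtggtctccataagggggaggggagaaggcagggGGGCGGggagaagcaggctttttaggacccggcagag
Igfbp5, chr1:72874866-72875115, minus strand: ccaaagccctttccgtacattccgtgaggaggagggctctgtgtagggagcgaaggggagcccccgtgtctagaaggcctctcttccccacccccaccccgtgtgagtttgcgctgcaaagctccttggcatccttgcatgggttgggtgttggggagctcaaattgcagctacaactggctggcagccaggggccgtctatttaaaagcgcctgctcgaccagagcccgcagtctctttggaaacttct
Igfbp4, chr11:99040994-99041243, plus strand: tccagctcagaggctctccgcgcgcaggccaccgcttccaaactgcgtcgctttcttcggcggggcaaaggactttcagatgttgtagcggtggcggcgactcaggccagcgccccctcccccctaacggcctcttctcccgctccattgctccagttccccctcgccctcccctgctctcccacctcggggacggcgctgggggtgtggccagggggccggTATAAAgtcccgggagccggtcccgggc
Igfbp7, chr5:77408046-77408295, minus strand: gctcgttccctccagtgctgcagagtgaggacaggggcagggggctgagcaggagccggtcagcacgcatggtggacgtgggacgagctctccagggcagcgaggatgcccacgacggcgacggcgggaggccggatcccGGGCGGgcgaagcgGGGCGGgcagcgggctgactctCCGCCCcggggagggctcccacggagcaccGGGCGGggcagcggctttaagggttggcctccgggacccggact

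The window of Igfbp2 held 3 GC boxes and 1 E-box, that of Igfbp7 held 4 GC boxes, and that of Igfbp4 held 1 TATA box. None of the 7 motifs was found in the Igfbp5 window. The windows of Igfbp3 and Igfbp6, which are not shown, held 1 TATATA and 1 TATAAA. Among 32851 RefSeq windows of the same length, GGGCGG was present in 32.7%, TATAAA in 12.4%, TATATA in 5.25% and CACGTG in 6.02%, with TGANTCA in 6.75%, TCATGTG in 3.25% and GTAAACA in 3.17%. The GC content was 67.2% for Igfbp2, 58.8% for Igfbp5, 69.2% for Igfbp4 and 74.0% for Igfbp7. The median GC content of all windows was 52.4%. No motif was shared by all 6 members, and the GC box and the TATA box were each in 2 of them.

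Levels are log2(intensity + 1), so that a step of 1 is a doubling, and this scale understates changes of dim genes. Array medians lay between 68.3 and 80.5 intensity units. Spread differed by group. Interquartile ranges of log2 levels were narrowest in arrested Cdkn2a/Braf cells (1.94 and 1.93), followed by the proliferations (2.0 to 2.11). Every other array had a wider range, from 2.45 to 2.89, the widest being Cdkn2a/Braf/Lkb1 melanoma (2.89 and 2.71). The cause of the unequal spread was not tested, and the alternative with a common interquartile range removes it. The arrays of sorted day 19 cells carried the melanocyte markers (8 genes, list mean 11.83 to 11.96), and those of day 50 cells did so at 10.65 and 11.25. The tissues carried less, with 8.10 to 8.20 in the proliferations, 5.92 and 6.54 in Cdkn2a/Braf melanoma and 5.71 and 5.87 in Cdkn2a/Braf/Lkb1 melanoma. The melanosomal enzyme gene Dct averaged 13.29 in Cdkn2a/Braf day 19 cells, 10.12 in the proliferations and 5.47 and 4.98 in the melanomas. Dct was thus low on the arrays labelled melanoma, and Tyr, which encodes tyrosinase, averaged 4.40 and 4.16 there. Not all 8 markers were as low in the melanomas. Sox10 averaged 7.59 and 6.20 there against 7.27 in the proliferations, and Kit averaged 7.43 and 6.93 against 7.23. Fibroblast markers (9 genes) ranged from 6.41 to 6.77 on day 19 arrays, were 8.02 and 8.26 at day 50, and lay between 9.59 and 10.51 in the tissues. Keratinocyte markers (8 genes) were 11.33 to 11.42 in the proliferations, 10.32 and 10.74 at day 50 and 7.48 to 8.49 at day 19. The Cdkn2a/Braf melanomas were split in this list, at 6.16 on replicate 1 and 9.55 on replicate 2. Cdkn2a/Braf/Lkb1 melanomas stood at 6.05 and 7.15. The day 50 arrays differed from each other more than other pairs did (SD of the log2 difference over genes 0.703, against 0.271 to 0.404), and endothelial markers (8 genes) stood at 8.44 on replicate 1 and 6.93 on replicate 2. Xist was 9.57 to 10.98 on both day 50 arrays, all 3 proliferation arrays and 1 of 2 day 19 arrays of each genotype, and 4.42 to 4.82 on the others, which include the 4 melanoma arrays, so sex and group cannot be told apart between the melanomas and either the proliferations or day 50 cells. In bulk samples, more cells of a type and more RNA per cell cannot be told apart.

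**Figure D1:**
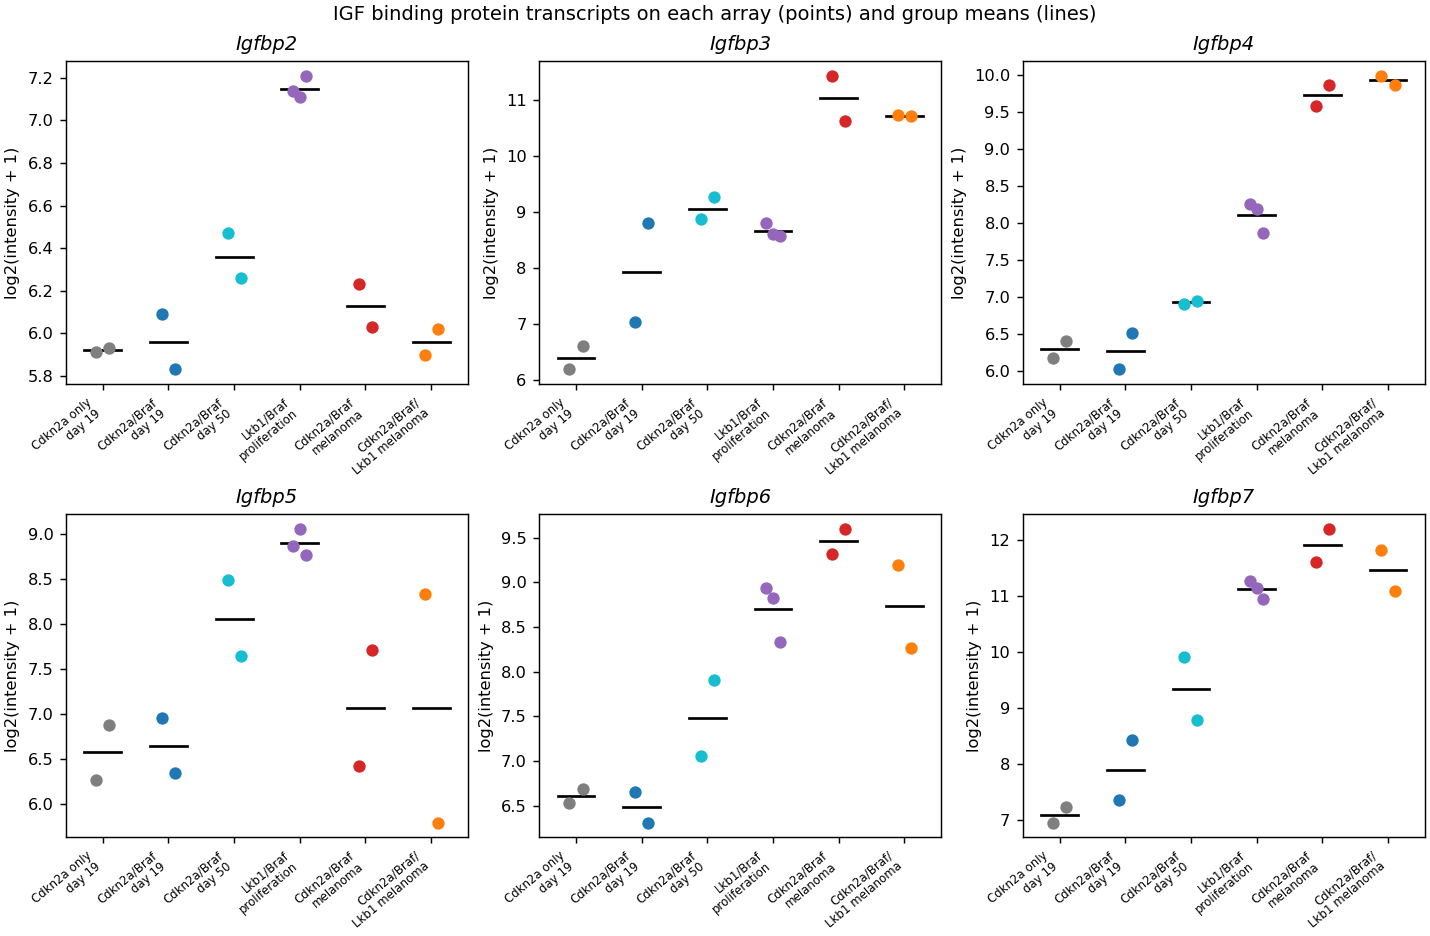
Level of each IGF binding protein transcript, as log2(intensity + 1), on each of 13 arrays (points) with the group mean (lines). Each panel has its own scale. Igfbp3, Igfbp4, Igfbp6 and Igfbp7 have their highest group means in the melanomas, while Igfbp2 and Igfbp5 are highest in the proliferations.

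Igfbp3, the main carrier of IGFs in serum, covered a wide range. It read 6.19 and 6.61 in Cdkn2a only cells, 7.04 and 8.80 in Cdkn2a/Braf day 19 cells, and 8.87 and 9.26 at day 50. The proliferations read 8.57, 8.61 and 8.80. Cdkn2a/Braf melanomas read 10.63 and 11.43, and Cdkn2a/Braf/Lkb1 melanomas read 10.71 and 10.73. The melanomas lay above every other array and overlapped each other, and the day 19 Cdkn2a/Braf pair was split, with replicate 2 equal to the highest proliferation.

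Igfbp4 encodes an inhibitory binding protein that the metalloprotease PAPP-A cuts. Its levels were 6.17 and 6.41 in Cdkn2a only cells, 6.02 and 6.51 in Cdkn2a/Braf day 19 cells, and 6.90 and 6.95 at day 50. They were 7.87, 8.19 and 8.25 in the proliferations, 9.58 and 9.87 in Cdkn2a/Braf melanoma, and 9.87 and 9.99 in Cdkn2a/Braf/Lkb1 melanoma. Day 19 cells, day 50 cells, proliferations and melanomas formed 4 steps without overlap between them, and neither the 2 day 19 genotypes nor the 2 melanoma genotypes were separated.

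Igfbp6, whose product prefers IGF2 to IGF1, read 6.53 and 6.69 in Cdkn2a only cells, 6.31 and 6.65 in Cdkn2a/Braf day 19 cells, and 7.06 and 7.91 at day 50. It read 8.33, 8.82 and 8.94 in the proliferations, 8.27 and 9.20 in Cdkn2a/Braf/Lkb1 melanoma, and 9.32 and 9.60 in Cdkn2a/Braf melanoma. All tissue arrays were above all sorted arrays, and the proliferations overlapped the Cdkn2a/Braf/Lkb1 melanomas.

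Igfbp7 read 6.96 and 7.24 in Cdkn2a only cells, 7.37 and 8.44 in Cdkn2a/Braf day 19 cells, and 9.92 and 8.79 on day 50 replicates 1 and 2. The proliferations read 10.95, 11.14 and 11.27, Cdkn2a/Braf/Lkb1 melanomas 11.09 and 11.83, and Cdkn2a/Braf melanomas 11.61 and 12.20. The 3 sorted groups did not overlap each other or the tissues, whereas the tissue groups that were neighbours in this order overlapped.

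Igfbp2, a fetal and tumour-associated member, was dim and moved over a narrow range. It lay between 5.83 and 6.09 in all day 19 cells, at 6.26 and 6.47 at day 50, at 6.03 and 6.23 in Cdkn2a/Braf melanoma and at 5.90 and 6.02 in Cdkn2a/Braf/Lkb1 melanoma. The proliferations read 7.11, 7.14 and 7.21 and stood above every other array. Its mean over all arrays, 6.32, was below the median gene mean of 6.51, and 5 of the 6 members were above that median. Cdkn2a/Braf day 19 cells overlapped both melanoma groups, Cdkn2a only cells overlapped Cdkn2a/Braf/Lkb1 melanoma but lay below Cdkn2a/Braf melanoma, and the melanoma genotypes did not overlap each other.

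Igfbp5, a matrix-bound member that is also cut by PAPP-A, had the least reproducible values. It read 6.26 and 6.88 in Cdkn2a only cells, 6.34 and 6.95 in Cdkn2a/Braf day 19 cells, and 8.49 and 7.64 on day 50 replicates 1 and 2. The proliferations read 8.77, 8.87 and 9.06, above all other arrays. Melanoma values were scattered, at 6.42 and 7.71 with Cdkn2a/Braf and at 8.33 and 5.79 on Cdkn2a/Braf/Lkb1 replicates 1 and 2. The melanoma groups, day 19 cells and day 50 cells formed a chain of overlapping ranges.

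Differences were tested with limma in 1 model of all 13 arrays, with Benjamini-Hochberg adjustment over 19937 genes at 0.05. They are given on the log2 scale with their standard error (SE). The model takes 1 spread per gene over all groups, although pairs of arrays differed by an SD of 0.703 at day 50 and 0.271 to 0.273 in the proliferations. Since the proliferation arrays are labelled as pooled, their SEs do not measure the spread of single animals. The first comparison sets Cdkn2a/Braf melanocytes after growth arrest, at day 50, against those before it, at day 19. Day and arrest cannot be told apart. Xist was also unbalanced, at 9.57 and 9.95 on the day 50 arrays and at 10.12 and 4.82 on the day 19 arrays. Igfbp7 rose by 1.45 from day 19 to day 50 (SE 0.43, 2.73-fold, limma adjusted p = 0.0345) and Igfbp4 rose by 0.66 (SE 0.20, 1.58-fold, limma adjusted p = 0.0348). These were 2 of 6 members, where 11.1% of all genes were called higher, 14.5% lower and 25.6% in either direction. The day 50 arrays of all 6 members lay above the day 19 arrays, as did those of 45.9% of all genes, and the member median was 1.08 against 0.17 for all genes. The other 4 differed by 0.40 for Igfbp2 (limma adjusted p = 0.0561), 1.01 for Igfbp6 (limma adjusted p = 0.056), 1.14 for Igfbp3 (limma adjusted p = 0.0889) and 1.42 for Igfbp5 (limma adjusted p = 0.144). Without day 19 replicate 1 or 2, Igfbp3 differed by 0.26 or 2.02 (limma adjusted p = 0.581 or 0.00545), and without day 50 replicate 1 or 2, Igfbp6 differed by 1.43 or 0.58 (limma adjusted p = 0.0166 or 0.231). The calls also rest on few arrays, and 0 members were called in a fit of these 2 groups alone. Without day 50 replicate 1, the array with more endothelial marker signal, Igfbp7 differed by 0.89 (limma adjusted p = 0.154), and without day 19 replicate 1 it differed by 0.92 (limma adjusted p = 0.22). Igfbp4 lost its call without day 19 replicate 1 (0.41) and without either day 50 array. Of all calls 43.4% were higher, and 24.1% after median centring. In this comparison fibroblast markers were called higher in 6 of 9 cases and lower in 1. Endothelial markers were higher in 6 of 8, mural cell markers in 1 of 7 and keratinocyte markers in 2 of 8. Melanocyte markers were lower in 4 of 8 (list median -0.51) and macrophage markers in 1 of 8, with 0 higher in either list. The part of these cells in the rise of Igfbp4 and Igfbp7 was not tested.

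The Braf allele was compared between sorted Cdkn2a/Braf and Cdkn2a only cells at day 19. Limma called 0 of 6 members, where 0.291% of all genes were called (0.236% higher and 0.0552% lower), and 1 member had an unadjusted p under 0.05. The member median was 0.06 against 0.02 for all genes. The member with the low unadjusted p was Igfbp3, which was higher on both Cdkn2a/Braf arrays, with a difference of 1.52 (SE 0.46, 95% interval 0.49 to 2.55, limma adjusted p = 0.371). Without Cdkn2a/Braf day 19 replicate 1 the difference was 2.40 (limma adjusted p = 0.0262), and without replicate 2 it was 0.64. Igfbp7 also did not overlap, at 0.80 (95% interval -0.15 to 1.76), where 40.6% of all genes did not. For Igfbp2 and Igfbp4 the intervals were narrow, from -0.27 to 0.35 and from -0.46 to 0.41, while for Igfbp5 the interval ran from -1.48 to 1.64.

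Adding Lkb1 loss to Cdkn2a/Braf melanoma was not accompanied by a called change in any of the 6 members. Limma called 2.56% of all genes (1.83% higher and 0.732% lower), the member median was -0.24 against -0.04 for all genes, and 0 members had an unadjusted p under 0.05. Of all calls 71.4% were higher, and 59.2% with a common interquartile range. Igfbp6 differed most, by -0.72 (SE 0.35, 95% interval -1.49 to 0.05, limma adjusted p = 0.292), with both Cdkn2a/Braf/Lkb1 arrays below both Cdkn2a/Braf arrays, as for 28.9% of all genes. The difference was -1.18 without Cdkn2a/Braf/Lkb1 replicate 1 and -0.25 without replicate 2. Igfbp2 differed by -0.18 (95% interval -0.48 to 0.13) and Igfbp4 by 0.20 (95% interval -0.23 to 0.64). The intervals for Igfbp3 (-1.34 to 0.72), Igfbp7 (-1.40 to 0.51) and Igfbp5 (-1.56 to 1.56) leave room for changes of more than 1 in at least 1 direction. Markers of other cells differed between these melanomas. With Lkb1 loss 2 of 8 macrophage, 2 of 7 mural and 1 of 9 fibroblast markers were higher, and 0 lower. The macrophage list mean was 8.88 and 9.39 against 7.97 and 8.02. Of 4 Schwann markers 1 was lower, and endothelial, keratinocyte and melanocyte lists had 0 calls. The part of these cells was not tested.

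**Figure D2:**
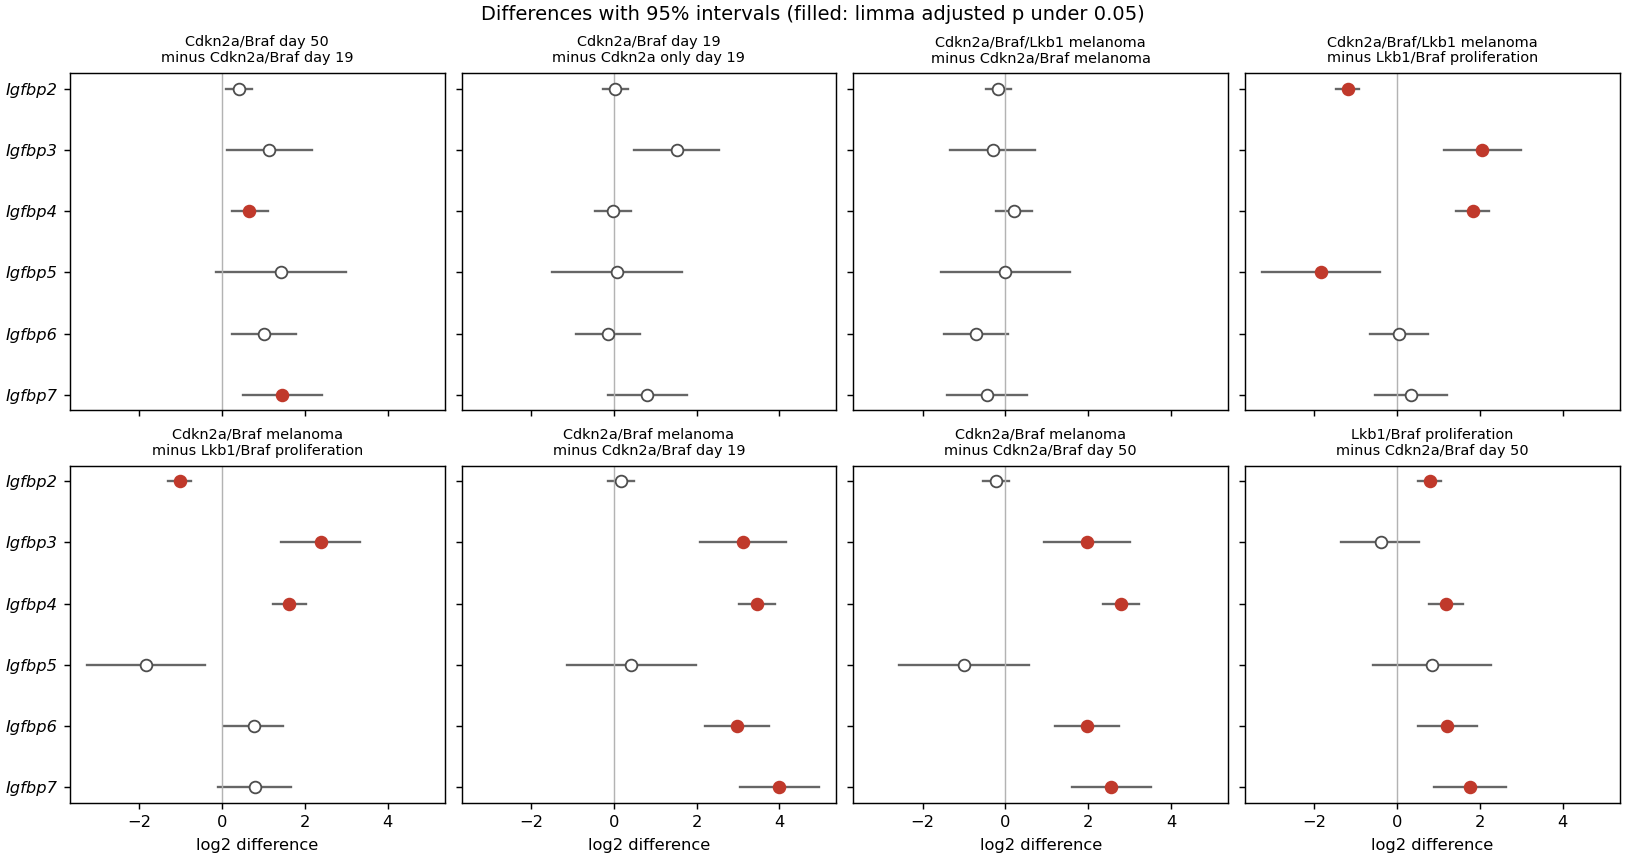
Log2 difference of each IGF binding protein in 8 comparisons (first group minus second), with 95% intervals from the limma fit. Filled points passed limma adjusted p under 0.05. The melanomas exceed the proliferations in Igfbp3 and Igfbp4 and fall below them in Igfbp2.

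Melanomas and proliferations differed in both directions within the family. Against the Lkb1/Braf proliferations, from which Cdkn2a/Braf/Lkb1 melanoma differs in Cdkn2a by label, Igfbp3 was higher by 2.06 (SE 0.42, 4.18-fold, limma adjusted p = 0.00433) and Igfbp4 by 1.82 (SE 0.18, 3.54-fold, limma adjusted p = 8.48e-05). Igfbp2 had a difference of -1.19 (SE 0.13, limma adjusted p = 0.000126), and Igfbp5 had a difference of -1.84 (SE 0.64, limma adjusted p = 0.0424). Thus 2 members were higher and 2 lower, where 20.0% of all genes were higher, 20.6% lower and 40.6% either, and the member median was 0.19 against -0.04. Of all calls 49.3% were higher, and 63.2% after median centring or 65.5% with a common interquartile range. With a common interquartile range Igfbp3 differed by 1.19 (limma adjusted p = 0.0479) and Igfbp4 by 1.16 (limma adjusted p = 0.000902). The Igfbp5 difference was -3.11 without Cdkn2a/Braf/Lkb1 replicate 1. The Igfbp5 call ended after median centring (limma adjusted p = 0.0566), without Cdkn2a/Braf/Lkb1 replicate 2, where its difference was -0.57 (limma adjusted p = 0.411), without each proliferation array in turn, and with the replicate number as a block (limma adjusted p = 0.0883). Igfbp6 differed by 0.04 (95% interval -0.66 to 0.75) and Igfbp7 by 0.34 (95% interval -0.53 to 1.21).

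Cdkn2a/Braf melanoma, which differs from the same proliferation arrays in both Cdkn2a and Lkb1, gave values of the same order. Igfbp3 was higher by 2.38 (SE 0.42, 5.19-fold, limma adjusted p = 0.00363), Igfbp4 by 1.62 (SE 0.18, 3.08-fold, limma adjusted p = 0.000267), and Igfbp2 had a difference of -1.02 (SE 0.13, limma adjusted p = 0.000528). Here 2 members were higher and 1 lower, where 12.6% of all genes were higher, 8.88% lower and 21.5% either. The member median was 0.77 against -0.02 for all genes, and the share of calls that were higher was 58.6%, or 68.6% after median centring and 45.6% after quantile normalization. Igfbp5 differed by -1.84 (limma adjusted p = 0.0664), Igfbp6 by 0.76 (limma adjusted p = 0.116) and Igfbp7 by 0.79 (limma adjusted p = 0.182). None of the 6 members overlapped between these groups, and neither did 58.0% of all genes. Markers of other cells differed too. In Cdkn2a/Braf melanoma 2 of 9 fibroblast markers were called higher, Pdgfra by 2.24 and Fbln1 by 1.3, and 0 lower. The median difference of the list was -0.07, with Dpt at -1.54 and Lum at -1.44, both uncalled. The fibroblast list mean was 9.70 and 9.84 against 9.59 to 9.85 in the proliferations. Endothelial markers were higher in 2 of 8 cases (list mean 7.43 and 7.60 against 6.73 to 6.84), macrophage markers in 1 of 8 with 1 lower, and mural cell markers (7 genes) went both ways, with 2 higher and 3 lower. In Cdkn2a/Braf/Lkb1 melanoma 5 of 9 fibroblast markers were higher and 1 lower, 4 of 8 endothelial and 5 of 8 macrophage markers were higher, and mural markers again had 2 higher and 3 lower. Keratinocyte markers were lower in 8 of 8 cases in Cdkn2a/Braf/Lkb1 and 7 of 8 in Cdkn2a/Braf melanoma, and melanocyte markers in 7 of 8 and 6 of 8. The part of these cells in the differences of Igfbp2, Igfbp3, Igfbp4 and Igfbp5 was not tested.

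**Figure D3:**
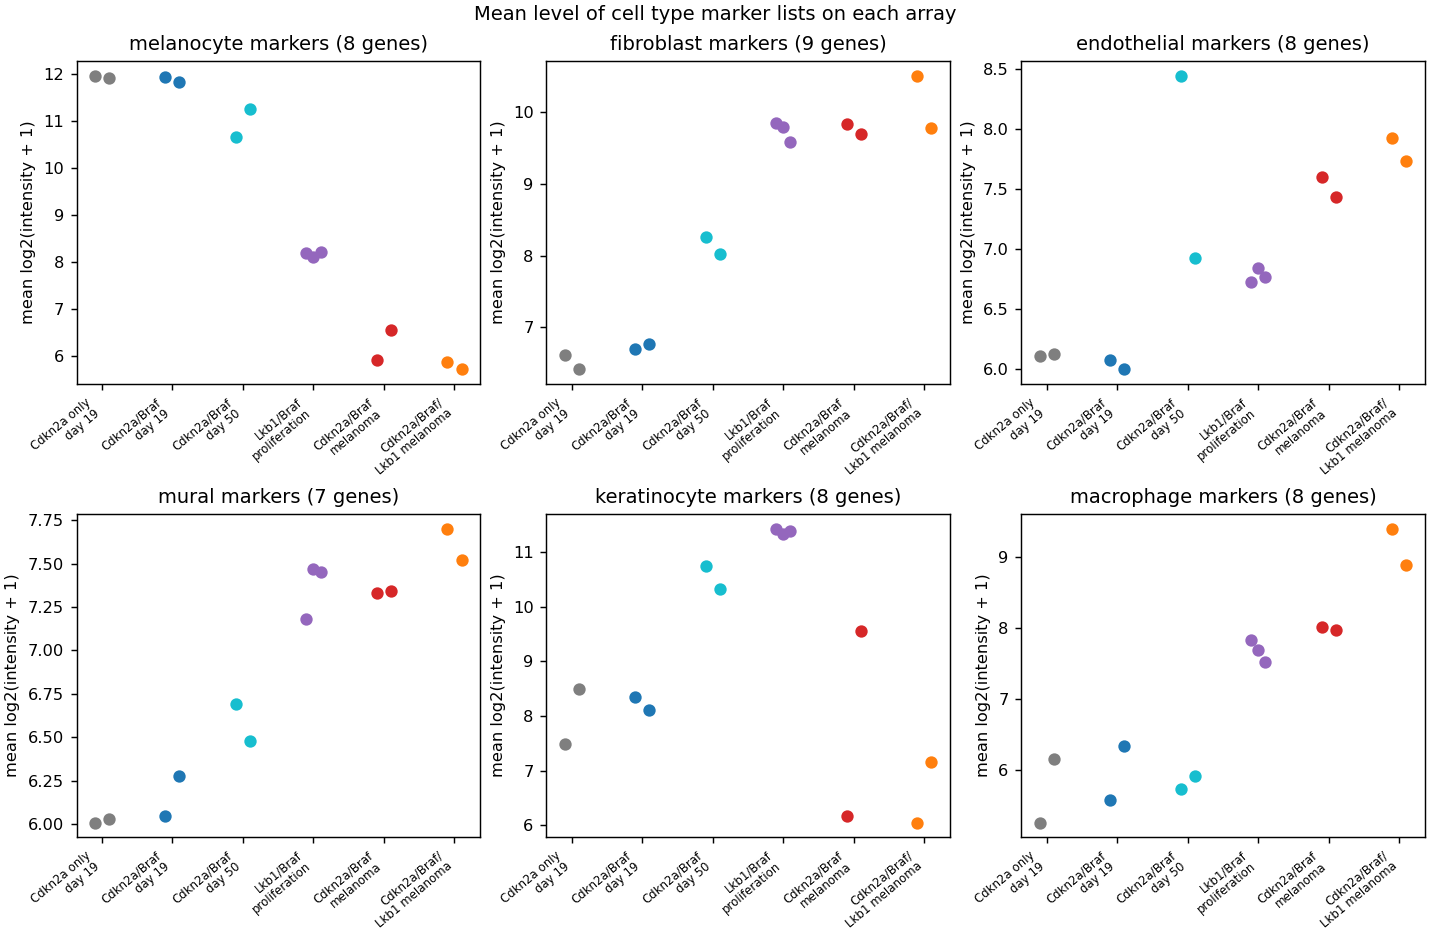
Mean log2(intensity + 1) of 6 cell type marker lists on each of 13 arrays (1 point per array). The melanocyte list is highest in sorted cells, the keratinocyte list in the proliferations, and the fibroblast list is higher in all tissues than in sorted cells.

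Comparisons of tissue with sorted cells differ in material as well as in stage, and the material and the stage cannot be told apart. The comparison of the proliferations with day 50 cells differs in genotype too. Cdkn2a/Braf melanoma exceeded day 19 melanocytes of the same genotype in 4 of 6 members, where 7.17% of all genes were higher, 5.46% lower and 12.6% either, and the member median was 3.05 against -0.04. Igfbp7 was higher by 4.0 (SE 0.43, 16-fold, limma adjusted p = 0.000172), Igfbp4 by 3.46 (SE 0.20, 11-fold, limma adjusted p = 3.73e-06), Igfbp3 by 3.11 (SE 0.46, 8.66-fold, limma adjusted p = 0.00139) and Igfbp6 by 2.98 (SE 0.35, 7.89-fold, limma adjusted p = 0.000285). Igfbp2 differed by 0.17 and Igfbp5 by 0.42, with overlapping arrays. In the same comparison 9 of 9 fibroblast, 4 of 8 endothelial, 4 of 7 mural and 5 of 8 macrophage markers were higher and 7 of 8 melanocyte markers were lower. The part of these cells in the 4 calls was not tested. Of all calls 56.8% were higher, and 44.0% after median centring.

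Against arrested day 50 cells the same 4 genes were higher in Cdkn2a/Braf melanoma, by 2.80 for Igfbp4, 2.55 for Igfbp7 and 1.97 for both Igfbp3 and Igfbp6, where 15.5% of all genes were higher, 16.9% lower and 32.4% either, and the member median was 1.97 against -0.15. The Igfbp3 call ended without Cdkn2a/Braf melanoma replicate 1 (1.57, limma adjusted p = 0.0725) and with a common interquartile range (1.16, limma adjusted p = 0.0812), which also took Igfbp7 to 1.63 (limma adjusted p = 0.0188). In a fit of these 2 groups alone, the calls of Igfbp3, Igfbp6 and Igfbp7 ended (limma adjusted p = 0.0824, 0.083 and 0.0909). The proliferations exceeded day 50 cells in Igfbp7 (1.77, SE 0.39, limma adjusted p = 0.0125), Igfbp6 (1.21, SE 0.32, limma adjusted p = 0.0255), Igfbp4 (1.18, SE 0.18, limma adjusted p = 0.00187) and Igfbp2 (0.79, SE 0.13, limma adjusted p = 0.00256), where 9.11% of all genes were higher, 9.2% lower and 18.3% either, and the member median was 1.01 against -0.10. Igfbp3 differed by -0.40, uncalled (95% interval -1.35 to 0.54). The proliferations are Lkb1/Braf and the day 50 cells Cdkn2a/Braf, so genotype, material and stage cannot be told apart here. The Igfbp6 call ended in 4 of 14 alternatives, among them those without day 50 replicate 1 (0.79) and without proliferation replicates 1 or 2. The Igfbp7 call ended without day 50 replicate 2 (1.20). Of all calls in the last comparison 49.8% were higher, and 34.2% after median centring or 32.9% with a common interquartile range. In melanoma and in the proliferations, each against day 50 cells, melanocyte markers were lower in 8 of 8 cases, mural markers higher in 3 of 7 and endothelial markers lower in 1 of 8 with 0 higher. Fibroblast markers were higher in 4 of 9 and 5 of 9, macrophage markers in 7 of 8 and 4 of 8, and keratinocyte markers were lower in 3 of 8 and 0 of 8. The part of these cells in the members' calls was not tested.

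**Figure D4:**
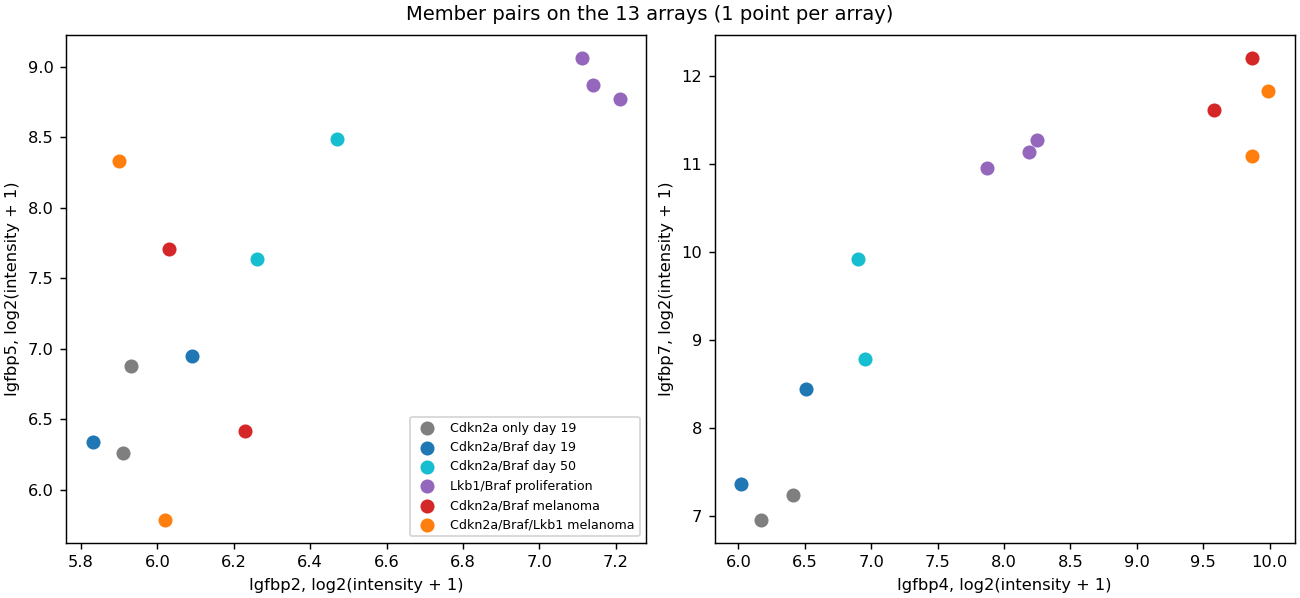
Levels of Igfbp5 against Igfbp2 (left) and of Igfbp7 against Igfbp4 (right), as log2(intensity + 1), with 1 point for each of 13 arrays. The proliferations stand apart in the left plot, and in the right plot the groups run from day 19 cells to melanoma.

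Over the 13 arrays, which share only 6 groups and so do not scatter independently, Igfbp3, Igfbp4, Igfbp6 and Igfbp7 had pairwise Pearson correlations of 0.77 to 0.92. Without the proliferations (10 arrays) the range was 0.87 to 0.95. Igfbp2 and Igfbp5 correlated at 0.77, and at 0.44 without the proliferations, so the likeness of these neighbouring genes rests largely on those 3 arrays. Between these sets, correlations with Igfbp2 or Igfbp5 were -0.02 to 0.12 for Igfbp3 and Igfbp4 and 0.37 to 0.45 for Igfbp6 and Igfbp7, and without the proliferations they were -0.02 to 0.29 for all 4. These values are descriptions of the groups and carry no test.

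The genes most like each member over the 13 arrays were, for Igfbp4, Loxl1, a crosslinking enzyme of elastic fibres (r = 0.991), Papss2 (0.989) and Actn1 (0.986). For Igfbp7 they were Cd34, a marker of vessels and of some stromal cells (0.979), S100a4 (0.975) and Fstl1 (0.974). For Igfbp6 they were Efemp1, an extracellular matrix protein (0.975), the ligand gene Igf1 (0.974) and Atp8b1 (0.968). Igfbp3 was most like Samhd1 (0.959), Lgals1 (0.957) and Fn1, which encodes fibronectin (0.955). Igfbp2 followed Paqr5 (0.963), Lce1j, a gene of the cornified epidermal envelope (0.962), and Susd2 (0.959), and Igfbp5 followed Gpha2 (0.936), Smagp (0.903) and Barx2 (0.890).

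The ligands, receptors and proteases that act with the binding proteins were read on the same arrays. Igf1 was 5.27 and 5.38 in Cdkn2a/Braf day 19 cells, 6.35 and 8.39 at day 50, 8.87 to 9.02 in the proliferations, 9.03 and 9.44 in Cdkn2a/Braf/Lkb1 melanoma and 10.11 and 10.36 in Cdkn2a/Braf melanoma. It was higher at day 50 than at day 19 by 2.04 (SE 0.50, limma adjusted p = 0.0175), on day 50 arrays that differed from each other by as much. Igf2 differed by 0.29 (limma adjusted p = 0.545). Several receptor genes fell at day 50, with Insr at -1.97 (SE 0.26), Igf1r at -1.25 (SE 0.29) and Igf2r, which clears IGF2, at -1.03 (SE 0.30). In all, 2 of 8 ligand and receptor genes were higher and 4 lower at day 50, the second increase being Lrp1, a surface receptor that binds IGFBP3 (1.10, SE 0.19), and the fourth decrease being Tmem219, another IGFBP3 receptor gene (-1.08, SE 0.15). Of 10 signal relay genes 5 were lower and 0 higher, and of 7 protease and inhibitor genes 0 were called. Of all genes 11.1% were higher and 14.5% lower at day 50.

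Between tissues several receptor, protease and inhibitor genes were higher in melanoma than in the proliferations. Igf2r was 7.44 to 7.61 in the proliferations and 9.49 to 10.51 on the melanoma arrays, and the difference was 2.58 (SE 0.27) for Cdkn2a/Braf and 2.37 (SE 0.27) for Cdkn2a/Braf/Lkb1 melanoma. Stc1, whose product inhibits PAPP-A, read 5.17 to 5.50 in the proliferations and 8.59 to 9.21 on the melanoma arrays, with differences of 3.32 (SE 0.17) and 3.65 (SE 0.17). Pappa itself was higher by 1.87 (SE 0.37) and 1.34 (SE 0.37), with the Cdkn2a/Braf/Lkb1 arrays at 7.15 and 8.90. In Cdkn2a/Braf/Lkb1 melanoma 4 of 8 ligand and receptor genes and 4 of 7 protease and inhibitor genes were higher, and 1 ligand and receptor gene, Igfals, which encodes the third partner of the serum IGF complex, was lower (-0.83, SE 0.14). The counts for Cdkn2a/Braf melanoma were 4 of 8 and 3 of 7, with 0 lower. Relay genes were higher in 3 of 10 and 4 of 10, among them the receptor adaptor Irs1 (1.53, SE 0.26 and 1.60, SE 0.26). Of all genes 20.0% were higher and 20.6% lower in Cdkn2a/Braf/Lkb1 melanoma, and 12.6% higher and 8.88% lower in Cdkn2a/Braf melanoma. Both comparisons share the proliferation arrays.

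**Figure D5:**
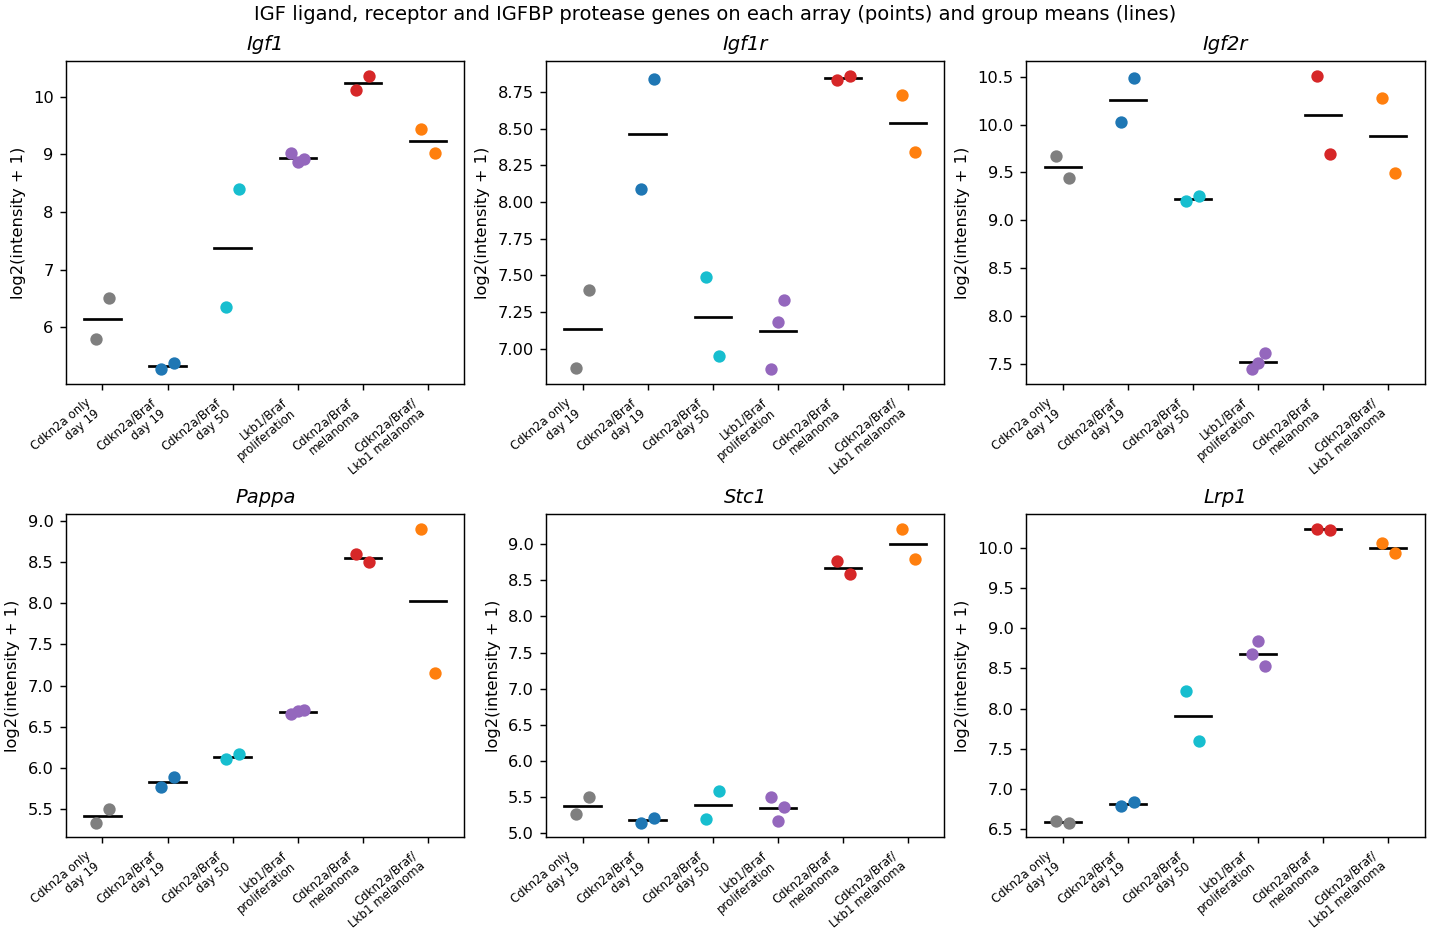
Levels, as log2(intensity + 1), of the ligand gene Igf1, the receptor genes Igf1r, Igf2r and Lrp1, the protease gene Pappa and its inhibitor gene Stc1 on each of 13 arrays (points), with group means (lines). Stc1 is 8.59 or above on the melanoma arrays and 5.58 or below on all others.

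Between the melanoma genotypes none of the 8 ligand and receptor genes or 7 protease and inhibitor genes was called, 1 of 10 relay genes was lower (Pik3r1, a regulatory subunit of PI3K, -0.87, SE 0.15) and 1 of 10 more distant relatives of the family was higher (Ccn4, a secreted WNT-induced protein, 1.18, SE 0.14). Of all genes 1.83% were higher and 0.732% lower between these genotypes. At day 50 against day 19, 1 of 10 relatives was higher and 0 lower, where 11.1% of all genes were higher and 14.5% lower. The higher one was Ccn3 (1.75, SE 0.49), on day 50 arrays at 6.74 and 8.55. Against Cdkn2a/Braf day 19 cells, 3 of 10 relatives were higher in Cdkn2a/Braf melanoma and 0 lower, where 7.17% of all genes were higher and 5.46% lower. They were Esm1, an endothelial proteoglycan (3.51, SE 0.56), Crim1 (2.01, SE 0.35) and Ccn2 (1.35, SE 0.29). The Braf comparison called 0 genes of these 4 lists, where 0.291% of all genes were called. Schwann cell markers (4 genes) had 0 calls between day 50 and day 19, 1 lower in Cdkn2a/Braf/Lkb1 than in Cdkn2a/Braf melanoma, and a list mean of 5.75 and 5.78 in the former against 6.79 and 7.54 in the latter.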

How the data were processed

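Total RNA was amplified and labelled with NuGEN reagents per the labels' protocols and hybridised to 13 arrays. The deposited values are intensities that the authors made with RMA, per the submitters' processing notes, on a linear scale by their range (3.35 to 17698), and neither its version nor how linear values arose is stated in the sources read. The number of arrays limits precision. Probe sets with 1 gene in the platform table (21640 of 34760, 21553 matched to RefSeq by Entrez identifier) gave 19937 genes, the set with the highest mean standing for a gene. A further 1321 probe sets name several genes and were left out, and 11799 are unnamed here. Values became log2(intensity + 1) and were fitted with limma 3.58.1 (R 4.3.3) as 6 group means (7 residual and 3.08 prior degrees of freedom, two-sided). The code was tested on simulated data. Python 3.11.15, pandas 2.3.3, numpy 2.4.6 and matplotlib 3.10.9 made tables and plots. All members are described, with the 3 genes of highest Pearson correlation among those at or above the median level, and 4 IGF and 7 marker lists (2 of 12 relay genes and 2 of 6 Schwann genes were not matched). Members and lists were chosen with earlier results of these data known. Alternatives were 16 in place of 1, median centring, quantile normalization, a common interquartile range, the mean of probe sets, a filter at the median level, a trend with robust moderation, fits on the compared groups alone, a replicate block and leaving out each array.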

Additional observations from a re-analysis of the deposited data

How the results depend on the processing

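Of 48 member differences 21 were called, and none of these changed direction in any alternative. The share of all genes called ran from 0.291% to 40.6% by comparison. Of the member calls 13 were kept in every alternative, all of Igfbp2, Igfbp3, Igfbp4, Igfbp6 or Igfbp7. None of these was in the comparison of day 50 with day 19. How many of all genes kept their call in every alternative was not counted, so the 13 have no background share. The count of members called from day 19 to day 50 (2) was 1 after median centring, 4 with a common interquartile range, 0 when the fit held only the 2 groups, 1 with the replicate block and 0 to 3 when an array was left out. In the Braf comparison it was 0 to 1 when an array was left out. In Cdkn2a/Braf melanoma against proliferations it was 6 in place of 3, and against day 50 cells 1 in place of 4, when the fit held only the 2 groups. The counts of all genes called moved too, with ranges given below. From day 19 to day 50, 2211 genes were called higher and 2884 lower. These counts were 1034 and 3263 after median centring, and 2065 and 3284 with a common interquartile range.

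Changes of sign touched only uncalled differences, and their cause was not tested. For the Braf allele, Igfbp2 (0.04) was -0.02 after median centring and with a common interquartile range, 0.00 after quantile normalization, and -0.09 to 0.17 when an array was left out. The same ranges were -0.27 to 0.23 for Igfbp4, -0.23 to 0.39 for Igfbp5 and -0.30 to 0.04 for Igfbp6. Between melanoma genotypes, Igfbp4 was -0.13 with a common interquartile range, Igfbp5 was 0.04 after median centring and with 16 added, and ranges without an array were -0.71 to 0.09 for Igfbp3 and -1.27 to 1.27 for Igfbp5. For Cdkn2a/Braf/Lkb1 melanoma against proliferations, Igfbp6 was -0.55 after quantile normalization and with a common interquartile range, -0.14 with the replicate block and -0.42 to 0.51 without an array, and Igfbp7 was -1.04 with a common interquartile range and -0.03 to 0.71 without an array. For Cdkn2a/Braf melanoma, Igfbp7 against proliferations was -0.13 with a common interquartile range, and Igfbp5 against day 19 cells was -0.22 to 1.06 without an array.

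Deviations of same-numbered arrays correlated at -0.12 to 0.06, so no strong shared deviation was seen. Where both groups hold 2 arrays, replicates 1 and 2 give the same value. A low correlation therefore cannot exclude that the numbers pair the samples. The replicate block moved the count of all genes called from 58 to 21 (Braf), 510 to 259 (melanoma genotypes) and 3652 to 2025 (proliferations against day 50). With the numbers of the melanoma genotypes crossed, an alternative chosen after seeing the data, 1 gene was called against 7 uncrossed. In order of the 8 comparisons as reported, all alternatives other than leaving out an array gave 290 to 5349 calls (5095 as reported), 0 to 65 (58), 1 to 588 (510), 4433 to 9381 (8090), 2900 to 6047 (4277), 1974 to 2782 (2518), 506 to 6776 (6462) and 1912 to 5655 (3652). Leaving out an array gave as few as 1835, 10, 135, 4343, 2215, 1377, 2761 and 2317. A common interquartile range moved the median difference of all genes from 0.17 to -0.05 (day 50 against day 19), and from -0.04 to 0.16 and -0.02 to 0.14 for the melanomas against proliferations. Igfbp2 was not tested under the filter at the median level.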
